A study of Sus scrofa with 60 samples.

Results

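The enzymes that make bile acids from cholesterol and join them to glycine or taurine were followed in 60 liver RNA libraries of neonatal pigs, which carry 59 distinct pig identifiers. The set was fixed by gene name and holds 9 names: CYP7A1, CYP27A1, CYP7B1, HSD3B7, AKR1D1, AMACR, ACOX2, SLC27A5, and BAAT. Of these, 7 had a row among the 30335 named genes of the count table, and CYP7B1 and BAAT had none under those names. All 7 passed the filter on low counts and are described below.

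Hepatocytes start bile acid synthesis either with CYP7A1 in the endoplasmic reticulum, the rate-limiting step of the classic pathway, or with CYP27A1 in mitochondria, the entry to the alternative pathway that CYP7B1 continues. HSD3B7 and AKR1D1 then remodel the sterol ring, AMACR and ACOX2 shorten the side chain in peroxisomes, and SLC27A5 and BAAT activate and conjugate the product. Bile acids hold the pathway down: the receptor NR1H4 (FXR) induces the repressor NR0B2 (SHP) in the liver and the hormone FGF19 in the intestine, and FGF19 acts on hepatocytes through FGFR4 and its partner KLB.

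Piglets of crossbred Landrace and Hampshire sows were delivered slightly preterm by cesarean section and had surgery on day 1 of life, in which the cystic and common bile ducts were tied (BDL) or the liver was only handled (sham). Every pig carried a jugular catheter and received parenteral nutrition (PN) at the start. ENT pigs (12 ENT-sham, 10 ENT-BDL) were then weaned stepwise onto milk replacer by an orogastric tube, while the others stayed on PN with a soy lipid emulsion (SLE, Intralipid; 10 SLE-sham, 11 SLE-BDL) or a mixed lipid emulsion (MLE, SMOFlipid; 9 MLE-sham, 8 MLE-BDL). Livers were collected after 14 days. ENT pigs were therefore not free of PN, and they differed from PN pigs in the route as well as the make-up of their feed, which cannot be told apart here.

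Counted reads per library ranged from 14469788 to 21374161. Levels are read counts scaled to library depth (CPM, with TMM factors), given as mean ± SD over pigs, and comparisons between genes use CPM per kb of the gene model. Differences are log2 fold changes with their SE from 1 edgeR quasi-likelihood fit to all 60 libraries, and a gene passed the test at a Benjamini-Hochberg adjusted p under 0.05 over 16210 genes. ENT-sham replicate 2 and ENT-BDL replicate 1 held nearly the same counts although they carry different labels (chi-square per degree of freedom 1.87, against 15.2 in the next closest of 1770 pairs). The comparisons with ENT groups were also fitted without both libraries, and values are given where a call of a member changed. For the 97 other listed genes tested, this changed 36 of 679 calls, 35 gained and 1 lost, and their values below are with both libraries unless stated. As a check of the labelled tissue, summed hepatocyte markers lay between 95780 and 221400 CPM over all livers. SLE-sham replicates 9 and 10 share 1 pig identifier, and whether they are 1 animal is not given. By their identifiers the other livers are separate pigs. Without SLE-sham replicate 9, CYP27A1 on ENT (adjusted p = 0.0552) and ACOX2 on SLE (adjusted p = 0.061) no longer passed after BDL. Without SLE-sham replicate 10, ACOX2 on SLE did not (adjusted p = 0.0768), and the other calls of members past the test held.

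The genes lie on 7 chromosomes of Sscrofa11.1. CYP7A1 is at chr4:74343101-74372628, CYP27A1 at chr15:120809886-120852196, HSD3B7 at chr3:17459627-17463381, AKR1D1 at chr18:11416065-11532846, AMACR at chr16:20005741-20023339, ACOX2 at chr13:40220952-40255967, and SLC27A5 at chr6:63068880-63075246. Values are for whole gene models. The span of CYP7A1 overlaps that of SDCBP on the other strand, and the library kit does not mark strand, so reads from the shared stretch cannot be told apart. SDCBP was itself higher after BDL on each diet, by a log2 fold change of 0.45 on ENT, 0.33 on SLE, and 0.51 on MLE. It stood at 70.4 CPM and above in SLE-sham livers and at 59.9 CPM and above in MLE-sham livers. CYP7A1 had 0 counts in SLE-sham replicate 2 and in MLE-sham replicate 5. The part of SDCBP reads in the CYP7A1 counts was not tested.

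Per kb of gene model, the levels of the 7 enzymes in ENT-sham liver spanned from 2.25 CPM per kb for CYP7A1 to 237 for AKR1D1. CYP27A1 stood at 158, SLC27A5 at 150, ACOX2 at 91.1, HSD3B7 at 60.8, and AMACR at 38.7 CPM per kb. The enzyme that limits the classic pathway thus had the lowest transcript level of the set, and the enzyme that reduces the ring the highest. The relative spread also differed. The coefficient of variation between pigs of a group was 60.1% to 150% for CYP7A1, 32.4% to 61.6% for SLC27A5, 11.2% to 40.1% for AKR1D1, and 6.46% to 31.3% for the other 4.

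CYP7A1 was the only member that passed in all 7 comparisons of BDL with sham and of PN with ENT. After BDL on ENT, 2 of 7 members passed, both higher, where 17.4% of all genes tested did (8.89% higher and 8.53% lower). On SLE 3 of 7 passed, 1 higher and 2 lower, where 4.54% of all genes did (2.97% higher and 1.57% lower). On MLE 3 of 7 passed, 1 higher and 2 lower, where 14.4% of all genes did (7.85% higher and 6.58% lower).

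Against the ENT group of the same surgery, nearly all members that passed were lower on PN. In SLE-sham 3 of 7 passed, all lower, where 27.5% of all genes did (13.9% higher and 13.6% lower). In MLE-sham 3 of 7 passed, all lower, where 21.1% of all genes did (10.7% higher and 10.4% lower). In SLE-BDL 5 of 7 passed, 4 lower and 1 higher, where 19.6% of all genes did (10.4% higher and 9.17% lower). In MLE-BDL 4 of 7 passed, all lower, where 16.8% of all genes did (8.53% higher and 8.27% lower). A share of 7 genes is coarse, and nothing is read from it beyond these counts. Over the 7 comparisons the members' median log2 fold change ran from -0.45 to 0.03, and that of all genes from -0.01 to 0.01.

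**Figure D1:**
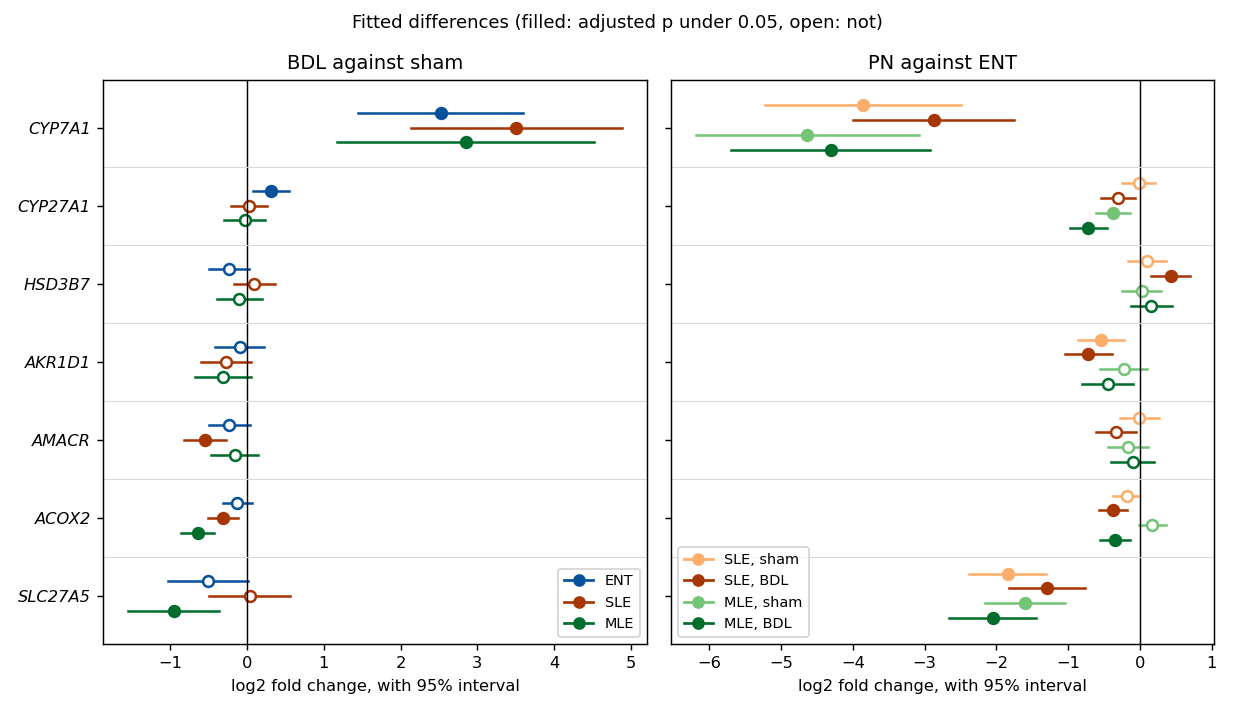
Log2 fold changes of the 7 enzymes with 95% intervals from the edgeR fit, for BDL against sham on each diet (left) and for PN against ENT groups of the same surgery (right). Filled points passed the test. CYP7A1 rose after BDL on every diet, and CYP7A1 and SLC27A5 were lower in every PN group than in the ENT group of the same surgery.

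CYP7A1 rose after BDL on every diet and was far lower on PN than on ENT. In ENT-sham livers it ranged from 0.469 to 49.1 CPM with a median of 5.56, and in ENT-BDL livers from 18.0 to 165 CPM with a median of 65.9. The ranges overlapped, and 6 of the 10 ENT-BDL livers lay above every ENT-sham liver. In counted reads these levels correspond to medians of 98 and 1061. The fitted difference on ENT was a log2 fold change of 2.52 (SE 0.54, adjusted p = 0.00051). ENT-sham replicate 2, one of the matching pair, had the highest level of its group. Without both matching libraries the ENT-sham mean was 8.82 ± 11.5 CPM (n = 11) in place of 12.2 ± 15.96 CPM (n = 12), and the difference was 3.06 on the log2 scale (adjusted p = 2.98e-05).

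On both lipid emulsions CYP7A1 started from close to nothing in sham livers. In SLE-sham livers it ranged from 0 to 2.74 CPM with a median of 0.497, and in SLE-BDL livers from 2.30 to 33.6 CPM with a median of 4.50. In MLE-sham livers it ranged from 0 to 2.44 CPM with a median of 0.335, and in MLE-BDL livers from 1.31 to 7.08 CPM with a median of 3.23. Sham and BDL ranges overlapped at low levels, with 8 of 11 SLE-BDL livers above every SLE-sham liver and 4 of 8 MLE-BDL livers above every MLE-sham liver. CYP7A1 rose by 3.51 on the log2 scale on SLE (SE 0.69, adjusted p = 0.0015) and by 2.84 on MLE (SE 0.83, adjusted p = 0.014). Of the sham livers, 2 on SLE and 3 on MLE had 3 counts or fewer, so these folds rest on small denominators. Without MLE-sham replicate 4, which had the highest level of its group, the difference on MLE was 3.73 (adjusted p = 0.00482). With limma voom, which gave log2 fold changes of 3.64 and 3.53, the adjusted p was 0.0535 on SLE and 0.11 on MLE. From qPCR the authors report that lower FGF19 in MLE-BDL pigs came without a matching increase in CYP7A1 mRNA.

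**Figure D2:**
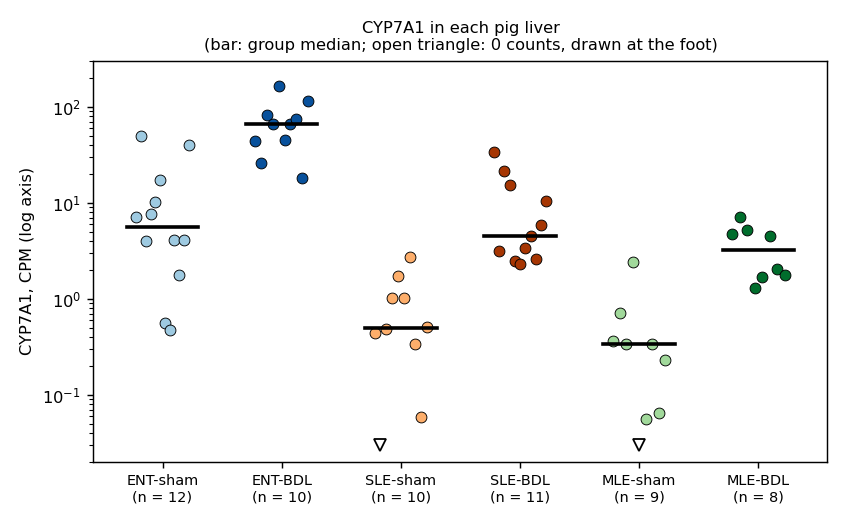
CYP7A1 in CPM (log axis) in each of the 60 livers by group. Bars mark group medians and open triangles mark livers with 0 counts. The ENT-BDL livers lie at 18.0 CPM and above, and the SLE-sham and MLE-sham livers at 2.74 CPM and below.

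PN groups had less CYP7A1 than ENT groups of the same surgery. After sham surgery the log2 fold change against ENT was -3.86 in SLE (SE 0.68, adjusted p = 1.41e-05) and -4.64 in MLE (SE 0.78, adjusted p = 9.51e-06). After BDL it was -2.87 in SLE (SE 0.56, adjusted p = 0.000149) and -4.31 in MLE (SE 0.69, adjusted p = 7.73e-06). All 8 MLE-BDL livers lay below every ENT-BDL liver, and 9 of 11 SLE-BDL livers did. These comparisons share the ENT pigs. Most ENT pigs carry a number in their identifier that no MLE pig carries, so diet and number are partly confounded in MLE against ENT. No CYP7A1 call of PN against ENT was lost with that number as a block. Without both matching libraries the sham differences were -3.38 and -4.16, and the BDL differences -2.94 and -4.38. Without MLE-sham replicate 4 the MLE difference after sham was -5.53.

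By mean level CYP7A1 fell in the order ENT-BDL (70.1 ± 43.8 CPM), ENT-sham, SLE-BDL (9.51 ± 10.1), MLE-BDL (3.52 ± 2.11), SLE-sham (0.833 ± 0.845), and MLE-sham (0.503 ± 0.756 CPM). Among neighbours in this order, ENT-BDL differed from ENT-sham. The other neighbours did not pass the test. SLE-BDL minus ENT-sham was -0.35 on the log2 scale (95% interval -1.40 to 0.69), MLE-BDL minus SLE-BDL was -1.44 (-2.69 to -0.19, adjusted p = 0.29), and MLE-BDL minus SLE-sham was 2.07 (0.59 to 3.54, adjusted p = 0.089). Every PN liver with a tied duct lay within the range of ENT-sham livers. MLE-BDL minus ENT-sham was -1.79 (adjusted p = 0.0199), which passed no longer without both matching libraries (-1.32, adjusted p = 0.0767). Without them SLE-BDL minus ENT-sham was 0.12 (adjusted p = 0.88), and the ENT-sham mean of 8.82 CPM lay below that of SLE-BDL. Among pigs that share the 3-digit number in their identifier, CYP7A1 was higher after BDL in 6 of 6 numbers on ENT, 4 of 4 on SLE, and 4 of 4 on MLE.

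CYP27A1, which opens the alternative pathway and also oxidizes the side chain in the classic one, moved little with BDL and was lower on MLE. In ENT-sham livers it ranged from 330.0 to 507 CPM with a median of 384, and in ENT-BDL livers from 382 to 603 CPM with a median of 508. The ranges overlapped, with 5 of 10 ENT-BDL livers above every ENT-sham liver. The difference was 0.31 on the log2 scale (SE 0.12) with an adjusted p of 0.0497, at the edge of the threshold, and 41 of 60 fits that each left out 1 library put it over the threshold (adjusted p up to 0.103). It did not pass in 4 of 9 alternative settings (adjusted p up to 0.0685), among them the pig number as a block (0.29, adjusted p = 0.0593). CYP27A1 was higher after BDL on ENT in 6 of 6 pig numbers. On SLE the difference was 0.03 (95% interval -0.21 to 0.26) and on MLE -0.03 (-0.29 to 0.24).

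CYP27A1 was lower on MLE than on ENT, while MLE against SLE did not pass. MLE-sham livers lay at 254 CPM and above with a median of 318, all below the lowest ENT-sham liver at 330.0 CPM, and MLE-BDL livers between 248 and 356 CPM with a median of 313. Every MLE liver lay below every ENT liver of the same surgery, although the sham groups nearly touched. The log2 fold change of MLE against ENT was -0.38 after sham (SE 0.12, adjusted p = 0.0187) and -0.72 after BDL (SE 0.13, adjusted p = 5.18e-05). SLE livers spread more widely, from 286 to 536 CPM after sham and from 216 to 669 CPM after BDL, and their difference from ENT was -0.02 after sham (95% interval -0.25 to 0.21) and -0.31 after BDL (-0.54 to -0.07, adjusted p = 0.0577). The latter passed in 5 of 9 alternative settings, over which the adjusted p ran from 0.0277 to 0.193. It passed without both matching libraries (-0.33, adjusted p = 0.0484), with DESeq2 (0.0471), and with limma voom (0.0296). It also passed with at least 10 counts in every library (0.0436) and with the pig number as a block (0.0277). Of 60 fits that each left out 1 library, it passed in 7.

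Per kb of gene model, CYP7A1 stood far below CYP27A1 in every group, and the distance changed with diet. For every 100 CPM per kb of CYP27A1 there were 1.32 ± 1.67 of CYP7A1 in ENT-sham livers and 6.25 ± 3.12 in ENT-BDL livers. On SLE the ratio was 0.0965 ± 0.0979 after sham and 1.11 ± 1.14 after BDL, and on MLE 0.0736 ± 0.106 and 0.541 ± 0.316. No liver on PN exceeded 3.74. The transcripts of both entry enzymes do not measure the flux through the pathways.

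CYP7B1, which continues the alternative pathway, had no row of its own. A locus that the table describes as like this hydroxylase, LOC100738003 (chr4:69615953-69793131), was found after the names had been searched and is given under its locus name. It held 140 to 170 CPM as group means, and the lowest and highest livers were at 117 and 239 CPM. BDL did not pass the test on any diet, with 95% intervals of -0.08 to 0.26 on ENT, -0.26 to 0.08 on SLE, and -0.14 to 0.23 on MLE on the log2 scale. After BDL it was lower in SLE than in ENT by a log2 fold change of -0.27 (SE 0.08, adjusted p = 0.0158).

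HSD3B7, which oxidizes the ring and shifts its double bond, passed the test in 1 of the 9 comparisons between groups. Its group means lay between 118 ± 26.4 CPM in ENT-BDL and 159 ± 41.5 CPM in SLE-BDL. BDL against sham did not pass on any diet, and the 95% intervals on the log2 scale were -0.50 to 0.03 on ENT, -0.17 to 0.36 on SLE, and -0.39 to 0.20 on MLE. After BDL it was higher in SLE, where livers ranged from 116 to 251 CPM with a median of 159, than in ENT, where they ranged from 72.6 to 143 CPM with a median of 130.2. The ranges overlapped, with 6 of 11 SLE-BDL livers above every ENT-BDL liver. The log2 fold change was 0.43 (SE 0.13, adjusted p = 0.0177), and it passed no longer without ENT-BDL replicate 4 (0.36, adjusted p = 0.0501) or SLE-BDL replicate 5 (0.33, adjusted p = 0.070), nor in a fit to only the groups compared (0.42, adjusted p = 0.0624). HSD3B7 was the only member that passed as higher on PN.

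AKR1D1, the reductase that bends the ring into the shape of a bile acid, was lower on SLE. Per kb of gene model it had the highest mean of the set in every group but SLE-BDL. There it was at 135 CPM per kb, against 159 for CYP27A1. ENT-sham livers ranged from 560 to 1474 CPM with a median of 976 (from 649.5 CPM without replicate 2), and SLE-sham livers from 497 to 865 CPM with a median of 698. ENT-BDL livers ranged from 566 to 1286 CPM with a median of 894 (from 712 CPM without replicate 1), and SLE-BDL livers from 229 to 890 CPM with a median of 574. The groups overlapped after either surgery. AKR1D1 in SLE was lower than in ENT by a log2 fold change of -0.54 after sham (SE 0.16, adjusted p = 0.00848) and -0.72 after BDL (SE 0.16, adjusted p = 0.000906).

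In MLE, AKR1D1 was at 845 ± 117 CPM after sham and 680 ± 75.9 CPM after BDL. Its log2 fold change against ENT was -0.23 after sham (95% interval -0.56 to 0.10) and -0.45 after BDL (-0.80 to -0.09, adjusted p = 0.0721). The latter passed in 2 of 9 alternative settings and in 2 of 60 fits that each left out 1 library. The settings were the omission of both matching libraries (-0.51, adjusted p = 0.0294) and a fit to only the groups compared (-0.46, adjusted p = 0.0239). BDL against sham did not pass on any diet, with 95% intervals of -0.41 to 0.23 on ENT, -0.60 to 0.05 on SLE, and -0.68 to 0.05 on MLE. A fit to only the MLE groups gave -0.32 with an adjusted p of 0.019, and AKR1D1 was lower after BDL on MLE in 4 of 4 pig numbers. Ordered by mean level, no neighbouring pair of the 6 groups passed the test for AKR1D1. AKR1D1 made up 26.7% to 35.3% of the summed CPM per kb of the 7 members as group means.

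AMACR, the racemase that prepares the side chain, and ACOX2, the oxidase that acts next, fell after BDL on SLE, and ACOX2 also on MLE. AMACR ranged from 45.6 to 84.9 CPM with a median of 60.2 in SLE-sham livers and from 32.1 to 58.1 CPM with a median of 38.8 in SLE-BDL livers. Of the 11 SLE-BDL livers 8 lay below every SLE-sham liver. The log2 fold change was -0.55 on SLE (SE 0.14, adjusted p = 0.0121). With the pig number as a block it was -0.46 with an adjusted p of 0.0617. The 95% interval was -0.50 to 0.04 on ENT and -0.47 to 0.15 on MLE, and AMACR did not pass in any comparison of diets. In SLE against ENT after BDL it was -0.33 (-0.61 to -0.06, adjusted p = 0.0799). This passed in 0 of 9 alternative settings (adjusted p from 0.0607 to 0.109). It passed in 2 of 60 fits that each left out 1 library, those without SLE-BDL replicate 7 (-0.40, adjusted p = 0.0378) or 9 (-0.39, adjusted p = 0.0444).

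ACOX2 separated MLE-sham from MLE-BDL livers without overlap. It ranged from 274 to 436 CPM with a median of 301 in MLE-sham and from 188 to 233 CPM with a median of 209 in MLE-BDL. The log2 fold change was -0.64 (SE 0.11, adjusted p = 2.89e-05), and ACOX2 was lower after BDL in 4 of 4 pig numbers. In SLE-sham livers it ranged from 225 to 321 CPM with a median of 246 and in SLE-BDL livers from 138 to 270 CPM with a median of 215, overlapping. There the log2 fold change was -0.31 (SE 0.10) with an adjusted p of 0.0491, and 26 of 60 fits that each left out 1 library put it over the threshold (adjusted p up to 0.113). With the pig number as a block it was -0.21 (adjusted p = 0.224), and the adjusted p was 0.0692 with no filter on low counts and 0.132 in a fit to only the groups compared. On ENT the difference was -0.12 (95% interval -0.31 to 0.07). Against ENT-BDL, ACOX2 was lower in SLE-BDL (-0.37, SE 0.10, adjusted p = 0.00374) and in MLE-BDL (-0.34, SE 0.10, adjusted p = 0.0167). After sham the PN groups did not pass against ENT, where SLE differed by -0.19 (adjusted p = 0.139), but with the pig number as a block SLE-sham was lower by -0.31 (adjusted p = 0.0122). MLE-sham had the highest mean of the 6 groups, at 325 ± 57.5 CPM.

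SLC27A5, the ligase that couples bile acids to coenzyme A before conjugation, had the largest differences between PN and ENT of the 7 members after CYP7A1. ENT-sham livers ranged from 130.2 to 537 CPM with a median of 380, SLE-sham livers from 55.7 to 176 CPM with a median of 98.4, and MLE-sham livers from 53.2 to 206 CPM with a median of 114. Of the sham livers, 9 of 10 on SLE and 7 of 9 on MLE lay below every ENT-sham liver. The log2 fold change was -1.84 in SLE (SE 0.27, adjusted p = 3.13e-07) and -1.61 in MLE (SE 0.28, adjusted p = 1.39e-05).

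After BDL, SLC27A5 ranged from 123 to 491 CPM with a median of 242 in ENT, from 39.6 to 271 CPM with a median of 89.9 in SLE, and from 38.4 to 93.0 CPM with a median of 64.9 in MLE. Every MLE-BDL liver lay below every ENT-BDL liver, and 9 of 11 SLE-BDL livers did. The log2 fold change against ENT was -1.30 in SLE (SE 0.26, adjusted p = 0.000249) and -2.05 in MLE (SE 0.30, adjusted p = 1.43e-06). After BDL on MLE it was lower by a log2 fold change of -0.95 (SE 0.30, adjusted p = 0.0213), a call that passed no longer without MLE-sham replicate 4 (-0.82, adjusted p = 0.0588). On ENT the difference after BDL was -0.51 (95% interval -1.02 to 0.01) and on SLE 0.04 (-0.49 to 0.56). In the order of means, SLC27A5 separated the ENT groups from the PN groups: ENT-BDL, the lower of the ENT groups, exceeded MLE-sham, the highest PN group, by 1.10 on the log2 scale (adjusted p = 0.00212), and no other neighbouring pair passed.

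BAAT, which makes the final bond to glycine or taurine, had no row. A locus described as like it, LOC102158534 (chr1:243065668-243084816), had 0 to 8 counts per library and was not tested. Which locus carries the amidating enzyme of the pig liver was not analysed here.

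**Figure D3:**
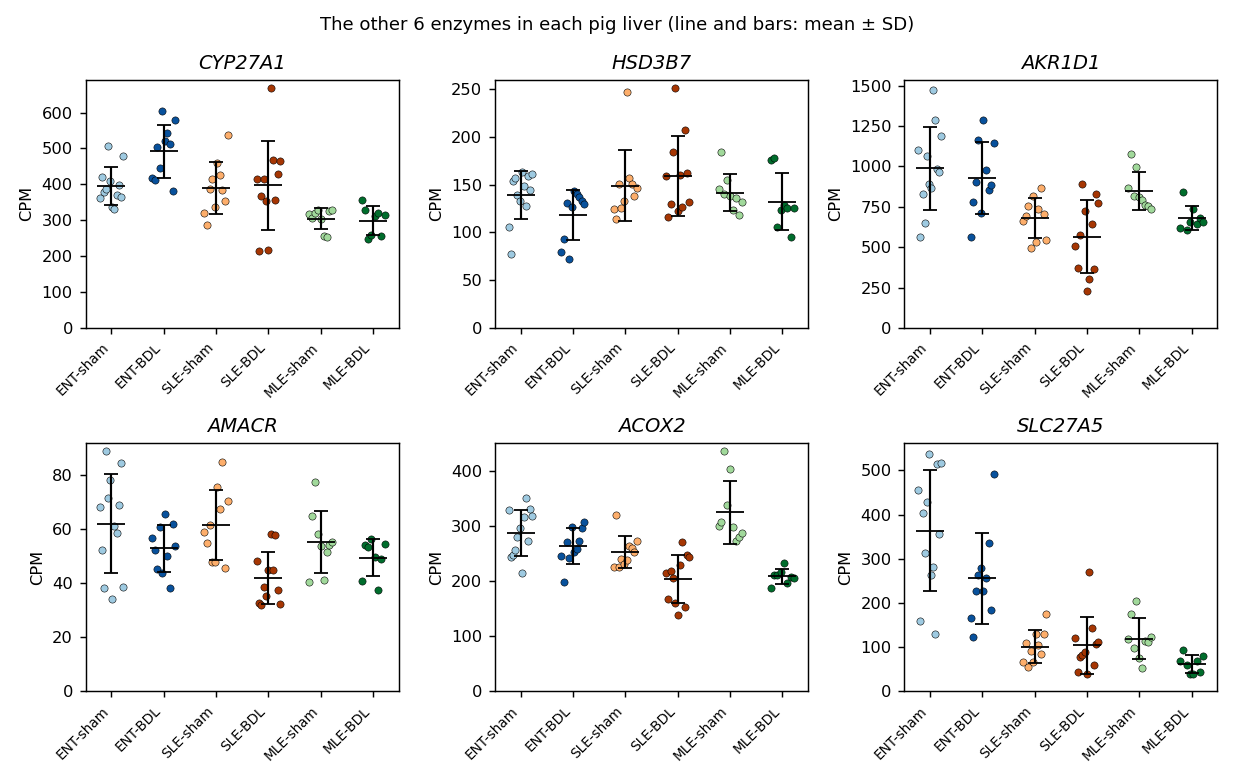
The other 6 enzymes in CPM in each of the 60 livers by group, with mean ± SD. SLC27A5 is lower in the PN groups than in the ENT groups, ACOX2 falls from 325 to 209 CPM on average between MLE-sham and MLE-BDL, and HSD3B7 stays between group means of 118 and 159 CPM.

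No member passed between the mixed and the soy emulsion, although some intervals lay to one side of 0. MLE against SLE gave 0 of 7 members past the test after BDL in edgeR, 0 in DESeq2, and 0 in limma voom, where 0.907% of all genes passed in edgeR. At an unadjusted p under 0.05 there were 3, CYP7A1, CYP27A1, and SLC27A5, all lower in MLE. The log2 fold changes of CYP27A1 and SLC27A5 were -0.41 (95% interval -0.67 to -0.16, adjusted p = 0.0984) and -0.75 (-1.32 to -0.18, adjusted p = 0.204). After sham, 0 of 7 passed in edgeR (0.999% of all genes), 1 in DESeq2, and 0 in limma voom. At an unadjusted p under 0.05 there were 2, CYP27A1 (-0.36, -0.61 to -0.11) and ACOX2 (0.36, 0.16 to 0.56), and the latter was the DESeq2 call (adjusted p = 0.0272).

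The response to BDL was also compared between diets through the interaction of diet and surgery. For SLE against ENT, 0 of 7 members passed in edgeR, DESeq2, or limma voom, 0 had an unadjusted p under 0.05, and 2.33% of all genes passed. For MLE against ENT it was 0 of 7 with each tool and 1 at an unadjusted p under 0.05, ACOX2 (-0.52 on the log2 scale, 95% interval -0.80 to -0.23), where 0.0617% of all genes passed. For MLE against SLE it was 0 of 7 with each tool and 2 at an unadjusted p under 0.05, SLC27A5 (-0.99, -1.78 to -0.20) and ACOX2 (-0.33, -0.62 to -0.04), where 0.265% of all genes passed. So the differences in BDL response described above for single diets did not pass a test of the difference itself. The interaction of CYP7A1 had an interval of -0.73 to 2.71 for SLE against ENT and -1.63 to 2.28 for MLE against ENT.

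Other genes of synthesis were read from a list of 17 names, of which 15 rows were tested. Higher and lower members past the test numbered 1 and 4 after BDL on ENT, 0 and 1 on SLE, and 1 and 1 on MLE, where the shares of all genes were 8.89% and 8.53%, 2.97% and 1.57%, and 7.85% and 6.58%. On PN against ENT they numbered 1 and 7 in SLE-sham, 1 and 7 in MLE-sham, 1 and 4 in SLE-BDL, and 1 and 7 in MLE-BDL, where 13.6%, 10.4%, 9.17%, and 8.27% of all genes were lower. The member that was higher on PN in all 4 of these was ABCD3, a peroxisomal importer of bile acid precursors, with log2 fold changes of 0.42 to 0.81. The median log2 fold change of the list was -0.19 in SLE-sham and -0.30 in MLE-sham, beside -0.01 for all genes in both.

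Of the electron donors of the cytochrome P450 enzymes, FDX1 was lower on PN after either surgery, POR was lower on PN after sham and did not pass after BDL, and FDXR did not pass in any of the 9 comparisons between groups. FDX1, the ferredoxin that feeds mitochondrial enzymes such as CYP27A1, ranged from 66.7 to 174 CPM with a median of 110.2 in ENT-sham livers (from 92.8 CPM without replicate 2), and the highest SLE-sham and MLE-sham livers were at 55.7 and 60.7 CPM. Neither PN sham group overlapped with ENT-sham. FDX1 fell by 0.74 on the log2 scale after BDL on ENT (adjusted p = 1.48e-07), whereas SLE-sham and SLE-BDL livers averaged 47.1 ± 6.82 and 44.97 ± 5.71 CPM. POR, which feeds CYP7A1 and other microsomal enzymes, averaged 212 ± 45.8 CPM in ENT-sham and 136 ± 31.4 CPM in ENT-BDL, against 143 ± 35.7 and 173 ± 44.1 CPM in SLE. After BDL the POR difference from ENT was 0.35 in SLE and -0.13 in MLE (adjusted p = 0.0615 and 0.588). FDXR, which reduces FDX1, averaged 20.5 ± 2.16 CPM in ENT-sham and 21.2 ± 3.69 CPM in SLE-sham. The BDL response on SLE minus that on ENT was 0.68 for FDX1 (SE 0.14, adjusted p = 0.00265) and 0.91 for POR (SE 0.19, adjusted p = 0.0035). On MLE minus ENT these were 0.50 and 0.41 and did not pass (adjusted p = 0.178 and 0.546).

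The enzymes that set the kind of bile acid behaved unlike each other. CYP8B1, the hydroxylase that makes cholic acid, was barely detected. It averaged at most 0.875 ± 0.646 CPM, in MLE-BDL, and 11 of 12 ENT-sham livers had 3 counts or fewer, so its folds are loosely set. It was higher after BDL on ENT (2.28, SE 0.76, adjusted p = 0.0289), from 0 to 7 counts in ENT-sham to 1 to 14 counts in ENT-BDL livers (3.25 without both matching libraries), and on MLE (2.60, SE 0.72, adjusted p = 0.00876), from 0 to 11 counts in MLE-sham to 3 to 41 counts in MLE-BDL livers. CYP4A21, the porcine enzyme that makes hyocholic acid, held 105 ± 46.5 CPM in ENT-sham and 26.1 ± 17.4 CPM in MLE-sham, a log2 fold change of -2.01 (SE 0.40, adjusted p = 0.000165). In SLE-sham it was lower by -1.06 (adjusted p = 0.0273) and in MLE-BDL by -1.35 against ENT-BDL (adjusted p = 0.0191), and SLE-BDL against ENT-BDL gave -0.40 (adjusted p = 0.488). CYP39A1, an oxysterol hydroxylase, was lower on PN in all 4 comparisons with ENT, by log2 fold changes of -0.46 to -0.83. AKR1C1 is the name of 2 rows, which may share reads. One of them was lower by -2.44 in SLE-sham and by -2.12 in MLE-sham than in ENT-sham, and the other by -1.12 and -1.02.

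Regulators of synthesis were read from a list of 16 genes, of which 15 were tested. After BDL, 1 was higher and 9 were lower on ENT, 1 and 1 on SLE, and 0 and 5 on MLE, where 8.53%, 1.57%, and 6.58% of all genes were lower. NR0B2, the repressor that bile acids induce through NR1H4, was lower in ENT-BDL (17.8 ± 6.49 CPM) than in ENT-sham livers (29.4 ± 6.54 CPM), by a log2 fold change of -0.72 (SE 0.16, adjusted p = 0.00056). It was higher in SLE-BDL (32.6 ± 13.7 CPM) than in ENT-BDL, by 0.87 (SE 0.16, adjusted p = 4.54e-05). NR1H4 itself fell by 0.22 after BDL on ENT (adjusted p = 0.012) and lay between 77.6 and 98.7 CPM in all groups as means.

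The receptor for FGF19 and its partner moved in opposite directions in sham pigs on PN. FGFR4 was higher in SLE-sham (0.31, SE 0.08, adjusted p = 0.00152) and in MLE-sham (0.32, SE 0.08, adjusted p = 0.00204) than in ENT-sham. KLB was lower in every PN group than in the ENT group of the same surgery, by log2 fold changes of -0.61 to -0.84, and rose after BDL on ENT (0.46, adjusted p = 0.0205) and on SLE (0.54, adjusted p = 0.0259). FGF19 itself had 1 count in 1 of 60 livers and was not tested, so nothing can be said of its level in the liver beyond this depth. NR1I3 (CAR), a xenobiotic receptor, averaged 28.4 ± 6.88 CPM in ENT-sham and 11.06 ± 4.93 and 10.7 ± 4.52 CPM in SLE-sham and MLE-sham. Its log2 fold change against ENT-sham was -1.35 and -1.41, and in MLE-BDL against ENT-BDL it was -1.52 (adjusted p = 1.39e-05, 2.48e-05, and 4.74e-05).

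Markers of several cell types moved with BDL as well. Of 10 cholangiocyte markers, 6 were higher after BDL on ENT, 2 on SLE, and 7 on MLE, and none was lower, where 8.89%, 2.97%, and 7.85% of all genes were higher. Their summed level went from 114 to 571 CPM in ENT-sham to 320 to 569 CPM in ENT-BDL livers, and from 114 to 245 CPM to 320 to 569 CPM without both matching libraries, then without overlap. Of 13 rows of hepatocyte markers, 5 were lower and 1 higher after BDL on ENT, 0 on SLE, and 10 lower on MLE, where 8.53%, 1.57%, and 6.58% of all genes were lower. The summed hepatocyte level was 152700 to 221400 CPM in MLE-sham and 108000 to 129400 CPM in MLE-BDL livers, without overlap. This stands beside the lower ACOX2 and SLC27A5 in MLE-BDL, and its part in them was not tested. In bulk liver, fewer hepatocytes and less RNA per hepatocyte cannot be told apart. In MLE-sham against ENT-sham 3 hepatocyte rows were higher and 2 lower (10.7% and 10.4% of all genes), beside the lower CYP7A1, CYP27A1, and SLC27A5. In SLE-sham against ENT-sham 1 was higher and 4 were lower (13.9% and 13.6% of all genes), beside the lower CYP7A1, AKR1D1, and SLC27A5, and their part in these was not tested. Cholangiocyte markers also moved between sham groups, with 3 higher in SLE-sham, among them SPP1 (2.51) and KRT19 (1.27), and 2 higher in MLE-sham than in ENT-sham, and none lower in either. The median log2 fold change of the 10 markers was -0.05 and -0.06 there. No gene of these lists was at 0 in every liver.

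Other cell types were read in the same way, with their counts after BDL. Of 10 stellate and fibroblast markers 2 were higher and 1 lower on ENT, 2 higher on SLE, and 4 higher and 1 lower on MLE. Of 10 macrophage markers 1 was higher on each diet, the scavenger receptor MARCO, by 1.48 on ENT, 1.01 on SLE, and 1.13 on MLE, and 2, 1, and 3 were lower. Of 8 endothelial markers 2 were lower on ENT, none passed on SLE, and 1 was higher and 1 lower on MLE. Of 8 red cell precursor markers 1 was lower on MLE, and of 8 T and NK cell markers 1 was lower on SLE. The shares of all genes are those given above for each diet. Summed stellate and fibroblast markers ranged from 1248 to 3205 CPM in MLE-sham and from 2269 to 5977 CPM in MLE-BDL livers. Summed macrophage markers ranged from 1254 to 2510 CPM in ENT-sham and from 1127 to 2133 CPM in ENT-BDL livers. Endothelial markers lay between 314 and 1381 CPM, red cell precursor markers between 36.1 and 378 CPM, and T and NK cell markers between 12.4 and 55.4 CPM over all 60 livers. Between diets, red cell precursor markers gave 1 higher and 4 lower in MLE-BDL than in ENT-BDL (8.53% and 8.27% of all genes), among them TFRC (1.79) and AHSP (-3.08), the chaperone of alpha hemoglobin, and the globin HBM (-2.33), beside the 4 lower members there, and EPB42, KLF1, and SLC4A1 were also lower without both matching libraries. T and NK cell markers gave 0 higher and 3 lower in SLE-BDL than in ENT-BDL (10.4% and 9.17% of all genes), among them CD3G (-1.48). Their part in the members' differences was not tested.

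For each member the genes with the most similar pattern were sought by Pearson's r of log2 CPM over the 60 livers, among 10807 genes. Livers of a group share diet and surgery, so r is also given after subtraction of group means, and no test is attached. For CYP7A1 the most similar gene over all livers was UBXN2B, with r of 0.863 and 0.539 after subtraction. After subtraction MAPK12 (0.55) and LMBR1 (0.546) ranked above UBXN2B. UBXN2B encodes a cofactor of a membrane-remodelling ATPase and lies 33.2 kb from CYP7A1 on the other strand, at chr4:74405876-74437650. It averaged 15.4 ± 3.16 CPM in ENT-sham and 9.60 ± 0.922 and 7.95 ± 1.29 CPM in SLE-sham and MLE-sham. It rose after BDL by 0.33 on ENT (adjusted p = 0.0279), 0.57 on SLE (adjusted p = 0.00163), and 0.62 on MLE (adjusted p = 0.000336), the same comparisons in which CYP7A1 rose, over a much smaller range.

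The other genes within 500 kb of CYP7A1 were examined after this was seen. SDCBP, which overlaps CYP7A1, had r of 0.67 and 0.318 with it, NSMAF, 46.4 kb away, 0.436 and -0.125, and LOC102166303, 154 kb away, 0.463 and 0.175. TOX and FAM110B, 228 and 239 kb away on either side, had r of 0.0367 and 0.0571, and -0.0244 and 0.215 after subtraction. UBXN2B was lower in SLE-sham than in ENT-sham by -0.69 (adjusted p = 2.34e-06) and in MLE-sham by -0.96 (adjusted p = 7.63e-09), while the differences of SDCBP there were -0.06 and -0.22 and did not pass (adjusted p = 0.659 and 0.0745).

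**Figure D4:**
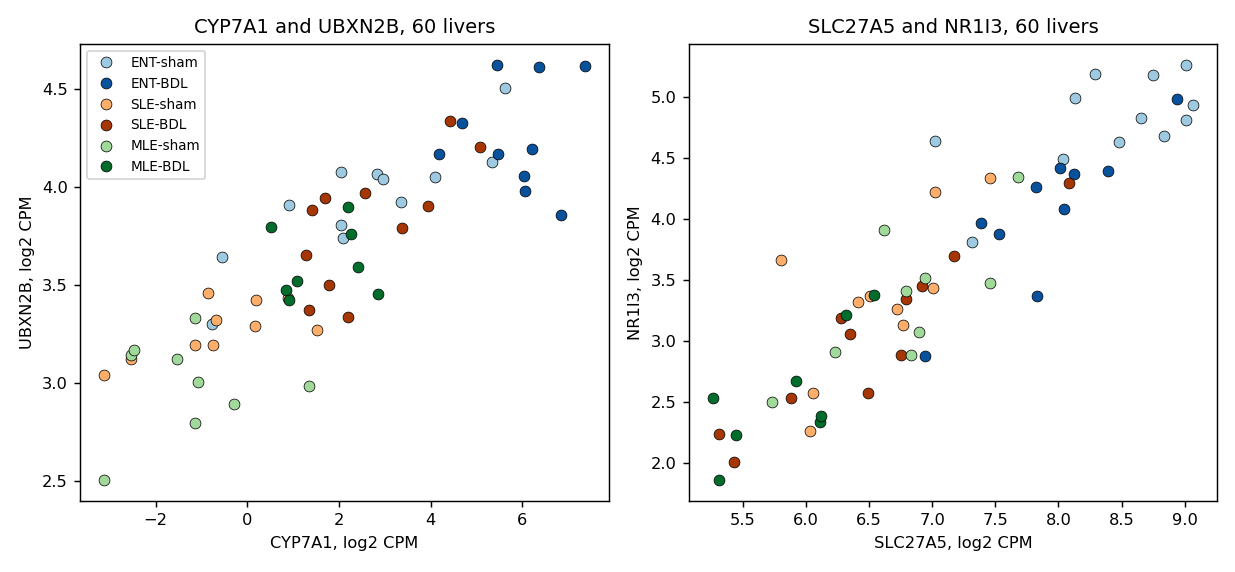
Log2 CPM of UBXN2B against CYP7A1 (left) and of NR1I3 against SLC27A5 (right) in the 60 livers, coloured by group. UBXN2B spans a far narrower range than CYP7A1 (r = 0.863), and NR1I3 and SLC27A5 decline together from ENT to PN livers (r = 0.912).

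SLC27A5 was most like NR1I3 (r = 0.912, and 0.769 after subtraction of group means) and CYP1A2, a drug-metabolizing enzyme (0.905 and 0.818). CYP27A1 was most like METTL7B (0.808 and 0.73) and CES3, a carboxylesterase (0.789 and 0.727). AKR1D1 was most like ACSS3, a mitochondrial acyl-CoA synthetase (0.843 and 0.811), and MBL1, a mannose-binding lectin (0.798 and 0.786). Over all livers ACOX2 and AMACR shared their closest genes, NMRK1, a kinase of NAD synthesis, and VNN1, a pantetheinase. With ACOX2, r was 0.828 and 0.672 for NMRK1 and 0.797 and 0.612 for VNN1. With AMACR, r was 0.52 and 0.346 for NMRK1 and 0.555 and 0.37 for VNN1. After subtraction the closest genes were not shared, with SLC17A3 and GPLD1 for ACOX2 and INSIG2 and GOLM1 for AMACR. HSD3B7 was most like SIRT2, a deacetylase (0.759 and 0.762), and EIF5A, a translation factor (0.754 and 0.753). The second gene of CYP7A1 was LMBR1 (0.802 and 0.546).

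The members did not vary as 1 block. Among the 21 pairs, r over 60 livers ran from -0.214 for CYP7A1 with HSD3B7 to 0.638 for CYP27A1 with SLC27A5. The latter pair had r of 0.676 after subtraction of group means, so the likeness held among pigs of the same group. AKR1D1 with ACOX2 had 0.628 and 0.447, and CYP7A1 with CYP27A1 0.59 and 0.431. The enzymes of adjoining peroxisomal steps, AMACR and ACOX2, had 0.396 and 0.183. The summed level of the 7 members averaged 737 ± 106 CPM per kb in ENT pigs after sham and 705 ± 116 after BDL. On SLE the sums were 544 ± 49.4 and 499 ± 114, and on MLE 573 ± 65.3 and 463 ± 43.0 CPM per kb. CYP7A1 was a small share of each sum.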

How the data were processed

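Liver RNA of neonatal pigs was sequenced as 60 paired-end poly(A) libraries. Per the labels and the methods, the authors trimmed reads with fastp, aligned them to Sscrofa11.1 with HISAT2 2.0.5, predicted new genes with StringTie 1.3.3, and counted reads per gene with featureCounts. The deposited table holds these whole-number counts for 30359 features without normalization. The strand setting of the counting is not given in the sources used here. The 24 features without a gene name (0.0084% to 0.041% of a library) were left out. Groups came from the labels for diet and surgery. The labels do not say which pigs were littermates.

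Counted reads per library (14469788 to 21374161) limit low genes. A library with at most 3 counts was treated as at the floor of detection. Intervals of 95% come from the model SE and hold counting error and the spread between pigs. Genes were filtered with filterByExpr, scaled by TMM, and tested two-sided in edgeR 4.0.16 (R 4.3.3) with estimateDisp, glmQLFit (robust), and glmQLFTest, with Benjamini-Hochberg adjustment over 16210 genes. All 60 libraries entered 1 fit. CPM uses TMM-scaled library sizes, and log2 CPM a prior count of 2. The study's own rule, a fold change above 2 as well, was used only to choose genes of the lists.

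Alternatives were DESeq2 1.42.0, limma voom 3.58.1, RLE scaling, no filter, at least 10 counts in every library, only the groups compared, a replicate block, the pig number as a block, omission of the matching ENT libraries, and omission of each library in turn. Comparisons across both diet and surgery, raw library totals, the neighbours of CYP7A1, and the loci like CYP7B1 and BAAT were added after the data were seen. The pipeline was tested on simulated data. The members and lists were chosen with earlier results of these data known. All 9 members, 6 genes around the FXR loop, up to 3 genes per list and comparison past both thresholds, and the 2 most similar genes of each member were named by rule, and others are named after their values were seen.

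The identifier of each pig holds a 3-digit number with 8 values, of which MLE pigs carry 4, and its meaning is not given. Most ENT pigs carry numbers that no MLE pig carries, so MLE against ENT is partly confounded with this number. Libraries with the same number deviated from their group means together (mean residual r of 0.1327 over 177 pairs, against -0.0178 over 1318 other pairs), so the pig number was also tried as a block. Replicate numbers did not pair the libraries (residual r of -0.231 to 0.381 over 82 pairs, median -0.0112). SLE-sham replicates 9 and 10 share a pig identifier. The chi-square statistic of this pair was 32.1 per degree of freedom, and the median over pairs within a group was 49.7, so both were kept.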

Additional observations from a re-analysis of the deposited data

Results flagged for a closer look

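In 28 sets of values of 1 member in 1 group of 8 to 10 libraries, the highest or lowest library was compared with the rest, of which chance alone would set apart about 1 in 20. CYP7A1 in MLE-sham replicate 4 stood at 2.44 CPM, far above the other MLE-sham livers. HSD3B7 in SLE-sham replicate 6 was at 247 CPM, and ACOX2 in SLE-sham replicate 2 was at 321 CPM, each the highest of its group by a wide gap. Without MLE-sham replicate 4, CYP7A1 was higher in MLE-BDL than in MLE-sham by 3.73 on the log2 scale (adjusted p = 0.00482). Without SLE-sham replicate 2, ACOX2 was higher in MLE-sham than in SLE-sham by 0.41 on the log2 scale (adjusted p = 0.0256). With that library the difference was 0.36 (adjusted p = 0.0586 in edgeR and 0.0272 in DESeq2).

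The response to BDL differed between SLE and ENT for 2 electron donors of the cytochrome P450 enzymes, by a log2 difference of 0.909 for POR and 0.677 for FDX1 in the interaction test. FDXR, which also serves them, did not pass (-0.31, adjusted p = 0.283). None of the 7 members passed that test.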

How the results depend on the processing

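Of 84 combinations of member and comparison, 23 passed the test, and 15 of these passed in every alternative that tested them and with each library left out. None of the 23 changed direction in any fit run, and all 23 passed with DESeq2 and without both matching ENT libraries. The filter of at least 10 counts in every library left CYP7A1 untested. After BDL on ENT the count of members past the test was 1 in place of 2 with limma voom, RLE scaling, no filter, that stricter filter, and the pig number block, and 1 to 2 with each library left out. After BDL on SLE it was 1 in place of 3 with the pig number block, and 2 with limma voom, no filter, the stricter filter, and a fit to only the groups compared. After BDL on MLE it was 2 in place of 3 with limma voom and the stricter filter and 4 in the fit to only the groups compared. For SLE against ENT after BDL it was 6 in place of 5 with DESeq2, limma voom, the pig number block, and without both matching libraries, and 4 in the fit to only the groups compared. For MLE against ENT after BDL, AKR1D1 also passed without both matching libraries and in the fit to only the groups compared. MLE against SLE after sham gave 1 in place of 0 with DESeq2 and 0 to 1 with each library left out, and after BDL 0 to 1, the 1 being CYP27A1 without SLE-BDL replicate 2 or 6. With the replicate block, CYP27A1 in MLE-sham against ENT-sham no longer passed (-0.31, adjusted p = 0.0711), CYP7A1 rose by 3.29 on ENT, and no other call changed. Limma voom gave 3.36 for the latter. The cause of these changes was not tested. The log2 differences that took the other sign never passed the test. With the replicate block they were -0.57 for the CYP7A1 response to BDL on MLE against ENT, 0.0025 for CYP27A1 in SLE against ENT after sham, 0.028 for the AKR1D1 response on MLE against SLE, and -0.0080 for SLC27A5 after BDL on SLE. With the pig number block they were 0.0024 for the CYP7A1 response on MLE against SLE, -0.11, -0.051, and -0.23 for HSD3B7 in MLE against ENT after BDL, SLE against ENT after sham, and MLE against ENT after sham, and -0.13 and -0.023 for ACOX2 in MLE against SLE after BDL and MLE against ENT after sham. With limma voom they were -0.0072 for CYP27A1 and -0.075 for SLC27A5 after BDL on SLE, 0.061 for the AKR1D1 response on MLE against SLE, and 0.027 for AMACR in SLE against ENT after sham. Without both matching libraries they were -0.21 for the CYP7A1 response on MLE against ENT and -0.040 for HSD3B7 in MLE against ENT after sham. With each library left out, the CYP7A1 response ran from -0.15 to 1.204 on MLE against ENT and from -1.10 to 0.22 on MLE against SLE. CYP27A1 ran from -0.079 to 0.092 after BDL on SLE, -0.073 to 0.0040 after BDL on MLE, -0.081 to 0.019 in SLE against ENT after sham, and -0.13 to 0.043 for the response on MLE against SLE. HSD3B7 ran from -0.017 to 0.13 and -0.039 to 0.052 in SLE and MLE against ENT after sham, and from -0.13 to 0.040 in MLE against SLE after sham. AKR1D1 ran from -0.13 to 0.039 for the response on MLE against SLE, SLC27A5 from -0.22 to 0.16 after BDL on SLE, AMACR from -0.074 to 0.046 in SLE against ENT after sham and from -0.0044 to 0.13 for the response on MLE against ENT, and ACOX2 from -0.024 to 0.066 in MLE against SLE after BDL. Raw library totals, tried after the data were seen, moved the median of all genes by 0.105 after BDL on ENT, 0.212 after BDL on MLE, and 0.141 in MLE against SLE after BDL, and no call changed sign. Depth limits CYP7A1 in SLE-sham and MLE-sham livers and CYP8B1 in every group, least in MLE-BDL, where 1 of 8 livers was at the floor of 3 counts.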
